A study of Mus musculus with 18 samples.

Results

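The genes described here make, move, break down and sense retinoic acid in the early mouse limb bud. They are Aldh1a2, Stra6, Dhrs3, Cyp26b1, Crabp1, Crabp2, Rarb and Rarg, chosen by name, and all 8 were found in each of the 3 deposited tables, among 13540, 14027 and 13478 listed genes. RNA was sequenced from 6 groups of limb buds with 3 libraries each. The CD1 groups were wild type forelimb at e10.5 and wild type hindlimb at e11.0, stages chosen because the buds match in shape. The other 4 groups were BALB/c hindlimb, wild type or Pitx1 null, at e11.0 and at e11.5, where e counts days of gestation. Pitx1 is a homeodomain transcription factor of the hindlimb, and the comparisons ask which genes differ between limb types and which change in hindlimbs without Pitx1. The labels call the mutant a knockout and do not say which part of the gene is missing, in which cells, or how many embryos went into a library. Nothing in them ties replicates to separate litters, so the p-values speak only of spread between these libraries, which may be technical.

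Retinoic acid is a small signal made from vitamin A. Stra6, a membrane receptor for retinol-binding protein, lets retinol into cells, an oxidation step gives retinaldehyde, and Aldh1a2 turns retinaldehyde into retinoic acid. Dhrs3 works the other way, reducing retinaldehyde back to retinol, and Cyp26b1, a cytochrome, oxidises and so removes retinoic acid. Crabp1 and Crabp2 carry retinoic acid inside the cell, and Rarb and Rarg are nuclear receptors that bind DNA with an RXR partner and switch transcription on retinoic acid binding. In the textbook account of the limb, Aldh1a2 is active in the flank and trunk mesoderm beside the bud and Cyp26b1 in the distal bud, which keeps the tip low in retinoic acid.

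Retinoic acid receptors bind pairs of a 6-base element repeated in the same direction, and the spacing called DR5 leaves 5 bases between the copies. RefSeq upstream windows, 250 bases before to 50 after a start site on GRCm38.p6, were given for 7 of the 8 genes, in 13 windows; Crabp2 had none. They were searched on both strands for DR5, and for the same pairs 1 or 2 bases apart, each member of the pair being AGGTCA, or its variant AGTTCA, or its variant GGGTCA, or else its variant GGTTCA. DR5 was found in 32 of 32851 windows of all genes (0.0974%), the spacing of 1 in 0.222% and the spacing of 2 in 0.268%. One window of the 8 genes held a match, that of Rarb, and the other 12 held none of the 3 spacings. Among the other pathway genes searched, Cyp26a1, a second cytochrome that removes retinoic acid, also held a DR5, and Bco1, which cleaves carotenoids, held a pair 1 base apart. The DR5 matches are shown because these 2 genes are textbook examples of receptor genes and enzymes that answer to retinoic acid. The copies are in capitals, and each run is 30 bases, 5′ to 3′.
Rarb, chr14:16575506-16575535, strand of the gene (minus): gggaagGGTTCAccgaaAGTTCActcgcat
Cyp26a1, chr19:37697770-37697799, strand opposite to the gene (the gene is on plus): acaaattAGTTCAcccaaAGTTCAtcttta
The Rarb match lies 53 to 37 bases before the RefSeq start site, and it falls in an annotated 5′ untranslated exon of 2 other Rarb transcripts of GENCODE. The Cyp26a1 match lies 32 to 16 bases before its start site. A match describes letters in a window and does not show binding.

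Depth on the listed genes was 17.4 to 53.6 M reads per library (M, 1000000), so that 1 read was worth at most 0.0575 CPM, reads per 1000000 reads on the listed genes. Replicates 1 and 2 of every group came from 1 sequencing run, per the titles, called the shared run here. The third replicates were from a second run at e11.0 and from another at e11.5, which did not keep strand, and those of CD1 have no run in their titles. Ribosomal RNA was depleted for all groups up to e11.0, whereas mRNA was enriched for those at e11.5, so that stage and library chemistry cannot be told apart between the Pitx1 tables. The run was a term of each fit, and replicate 3 stood apart from replicates 1 and 2 in every table. For CD1 the term assumed that replicate 3 of forelimb and replicate 3 of hindlimb came from 1 common run. Their titles do not state this, and it was not tested. All 6 limb mesenchyme markers (Prrx1, Prrx2, Twist1, Msx1, Lmx1b, Fgf10) were listed in all tables, and their summed level was 614 to 1656 CPM. In CD1, Pitx1 stood at 0.352 ± 0.1 CPM for forelimb and 209 ± 22.5 CPM for hindlimb (SD, n = 3). In Pitx1 null hindlimbs it was at 21.2 ± 1.81 CPM against 124 ± 10.9 CPM in wild type at e11.0, and at 79.8 ± 8.31 against 338 ± 23.7 CPM at e11.5, so reads were still counted on the gene in the null.

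Set against transcript length, the carriers were the most abundant of the 8 genes in all 6 groups and the synthesis enzyme Aldh1a2 was among the 3 least abundant in 5 of them. Levels between genes are given as CPM per kb of the longest annotated transcript, as means over 3 libraries. Crabp2 stood between 245 and 414 CPM per kb and Crabp1 between 166 and 330, and their ranges over libraries overlapped in both e11.0 groups of BALB/c hindlimb and in e11.5 null hindlimb. Rarg came next in 5 of the 6 groups, at 29.7 to 85.3 CPM per kb; in e11.0 null hindlimb it was at 21.1, overlapping Rarb at 25.9. Cyp26b1 was at 9.22 to 30.7 CPM per kb in the e10.5 and e11.0 groups and at 81.7 and 77.1 in the e11.5 groups, where it overlapped Rarg. Stra6 was at 10.4 to 14.2 CPM per kb up to e11.0 and at 28.6 and 32.1 at e11.5. Rarb ran from 7.26 CPM per kb in e11.5 wild type to 25.9 in e11.0 null hindlimb. Dhrs3 stayed between 4.35 and 7.03 CPM per kb and was the lowest gene in 5 groups. Aldh1a2 was the lowest in CD1 forelimb, at 1.68 CPM per kb, and reached 17.3 in e11.0 null hindlimb, where it stood above Stra6, Cyp26b1 and Dhrs3. The 3 tables were scaled separately, so these levels stand side by side between tables and were not tested. With the length of all exons joined in place of the longest transcript, Crabp1 ranked above Crabp2 in 4 groups, and the ranks of 4 to 7 genes changed in the groups other than CD1 forelimb, among them Dhrs3, which then ranked above Rarb in e11.5 wild type hindlimb, and Aldh1a2, which then came directly below the carriers in e11.0 null hindlimb.

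**Figure D1:**
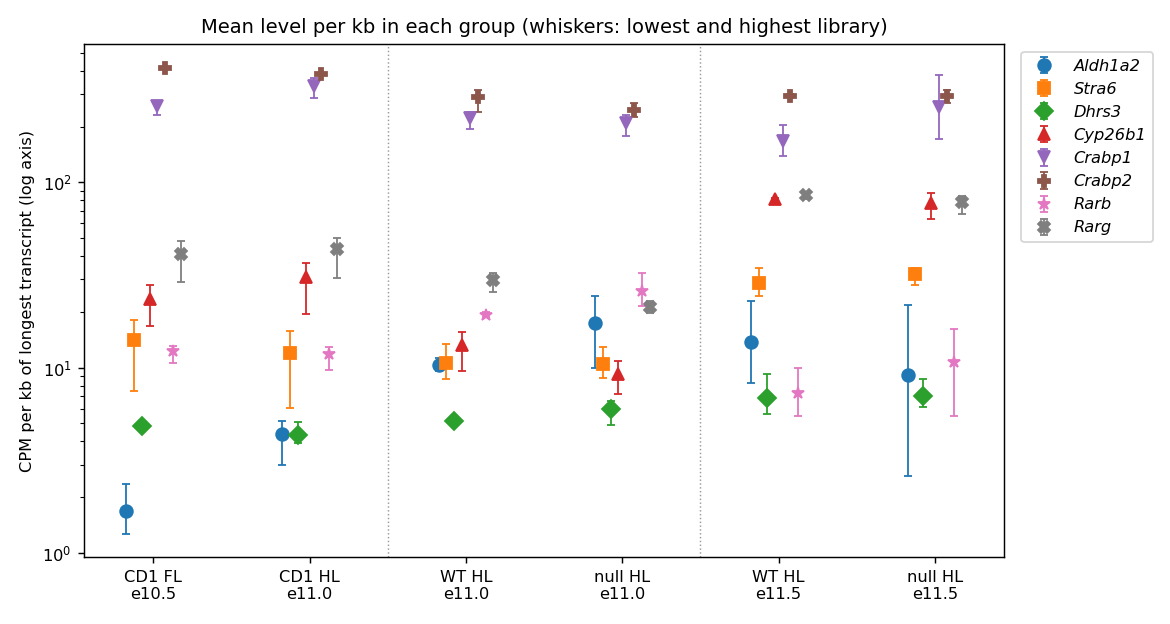
Mean level of each of the 8 genes in CPM per kb of its longest transcript (log axis) in the 6 groups of 3 libraries, with whiskers from the lowest to the highest library; FL is forelimb, HL hindlimb and WT wild type, and dotted lines part the separately scaled tables. Crabp2 and Crabp1 lie above 166 CPM per kb in every group, while Aldh1a2 and Dhrs3 lie lowest in CD1.

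In CD1, hindlimb buds at e11.0 held more Aldh1a2, Cyp26b1 and Crabp1 RNA than forelimb buds at e10.5, and less Stra6. These 4 of the 8 genes passed limma's test at an adjusted p under 0.05, 3 higher and 1 lower, where 5.87% of all listed genes passed, 2.41% higher and 3.46% lower. The largest difference was that of Aldh1a2, 2.63-fold on mean CPM, and the other 3 differed by less than 1.5-fold. Because forelimb was taken at e10.5 alone and hindlimb at e11.0 alone, limb type and age cannot be told apart. Without a term for the run, none of the 8 genes passed limma's test in this or either Pitx1 comparison, and 2 in CD1, 2 at e11.0 and 0 at e11.5 had an unadjusted p under 0.05. The share of all genes under that unadjusted threshold is not given here, so these counts cannot be set against it. In bulk RNA, fewer cells of a type and less RNA per cell cannot be told apart either. The groups did not overlap in 3 of the 8 genes, against 11.2% of all genes.

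Aldh1a2, the synthesis enzyme, was at 5.35, 3.18 and 2.86 CPM in forelimb replicates 1 to 3 and at 11.6, 11.6 and 6.75 CPM in hindlimb. Every hindlimb library lay above every forelimb library, and replicate 3 was the lowest of both groups. The log2 fold change was 1.20 ± 0.15 (SE; limma adjusted p = 0.00105), on log2(CPM + 1), which understates changes of low genes. It was 1.29 within the shared run and 1.004 between the third replicates. Stra6, which admits retinol, was at 52.0, 55.8 and 23.0 CPM in forelimb and at 48.5, 43.5 and 18.6 CPM in hindlimb. The groups overlapped, since replicate 3 was far below the others in both, but hindlimb was lower in each same-numbered pair (-0.25 ± 0.06, adjusted p = 0.0441). That call was lost with the replicate number as a block (adjusted p = 0.0869). It was also lost without forelimb replicate 2 (adjusted p = 0.117) or 3 (0.17), and without hindlimb replicate 1 (0.0635), 2 (0.213) or 3 (0.168). A replicate 3 left without its partner adds nothing to a fit with a run term, so the fits without either replicate 3 of a comparison are in effect 1 test, in every comparison. Within 1 table, the fit to replicates 1 and 2 alone is in effect that same test. Dhrs3, which returns retinaldehyde to retinol, was at 10.9 to 11.7 CPM in forelimb and 9.18 to 11.9 CPM in hindlimb (-0.15 ± 0.09, adjusted p = 0.368).

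Cyp26b1, the breakdown enzyme, was at 117, 125 and 75.1 CPM in forelimb and 165, 161 and 87.7 CPM in hindlimb. The third replicates were again the lowest and made the groups overlap, while hindlimb was higher in every same-numbered pair (0.36 ± 0.06, adjusted p = 0.0043). Crabp1, a carrier, was at 219, 217 and 185 CPM in forelimb and 274, 292 and 228 CPM in hindlimb, without overlap (0.35 ± 0.05, adjusted p = 0.00154). The calls of Aldh1a2, Cyp26b1 and Crabp1 held in all 6 fits that left out 1 library. Crabp2, the other carrier, was at 380 to 389 CPM in forelimb and 353 to 363 CPM in hindlimb. Its groups did not overlap, but the difference of -0.11 ± 0.04 did not pass (adjusted p = 0.169).

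The receptors showed no difference that passed. Rarb was at 32.9 to 40.9 CPM in forelimb and 30.4 to 40.0 CPM in hindlimb (-0.06 ± 0.05, adjusted p = 0.563), and Rarg at 85.4 to 142 CPM and 90.3 to 149 CPM (0.09 ± 0.04, adjusted p = 0.27). In the same libraries 2 of 6 erythroid markers were higher in hindlimb, and 1 of 7 surface ectoderm, 1 of 7 endothelial and 2 of the 3 listed muscle precursor markers were lower. Of 6 limb mesenchyme markers 3 were lower (Twist1, Lmx1b and Fgf10), with a sum of 863 to 1276 CPM in forelimb and 828 to 1146 CPM in hindlimb. The calls of Twist1 and Lmx1b were lost with the replicate number as a block (limma adjusted p = 0.0622 and 0.0722). Of 4 proximal limb markers 2 were lower (Meis2 and Shox2), and of 6 distal ones 3 were higher and 1 lower. Both proximal calls were lost with that block too (limma adjusted p = 0.0721 for Meis2 and 0.087 for Shox2). None of the 4 listed somite and body wall or 3 listed neural crest, nerve and Schwann markers was called. The summed level of the proximal markers was 682 to 866 CPM in forelimb and 631 to 802 CPM in hindlimb, and that of the distal markers was 524 to 559 and 540 to 577 CPM. The part of these cell types in the members' differences was not tested.

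**Figure D2:**
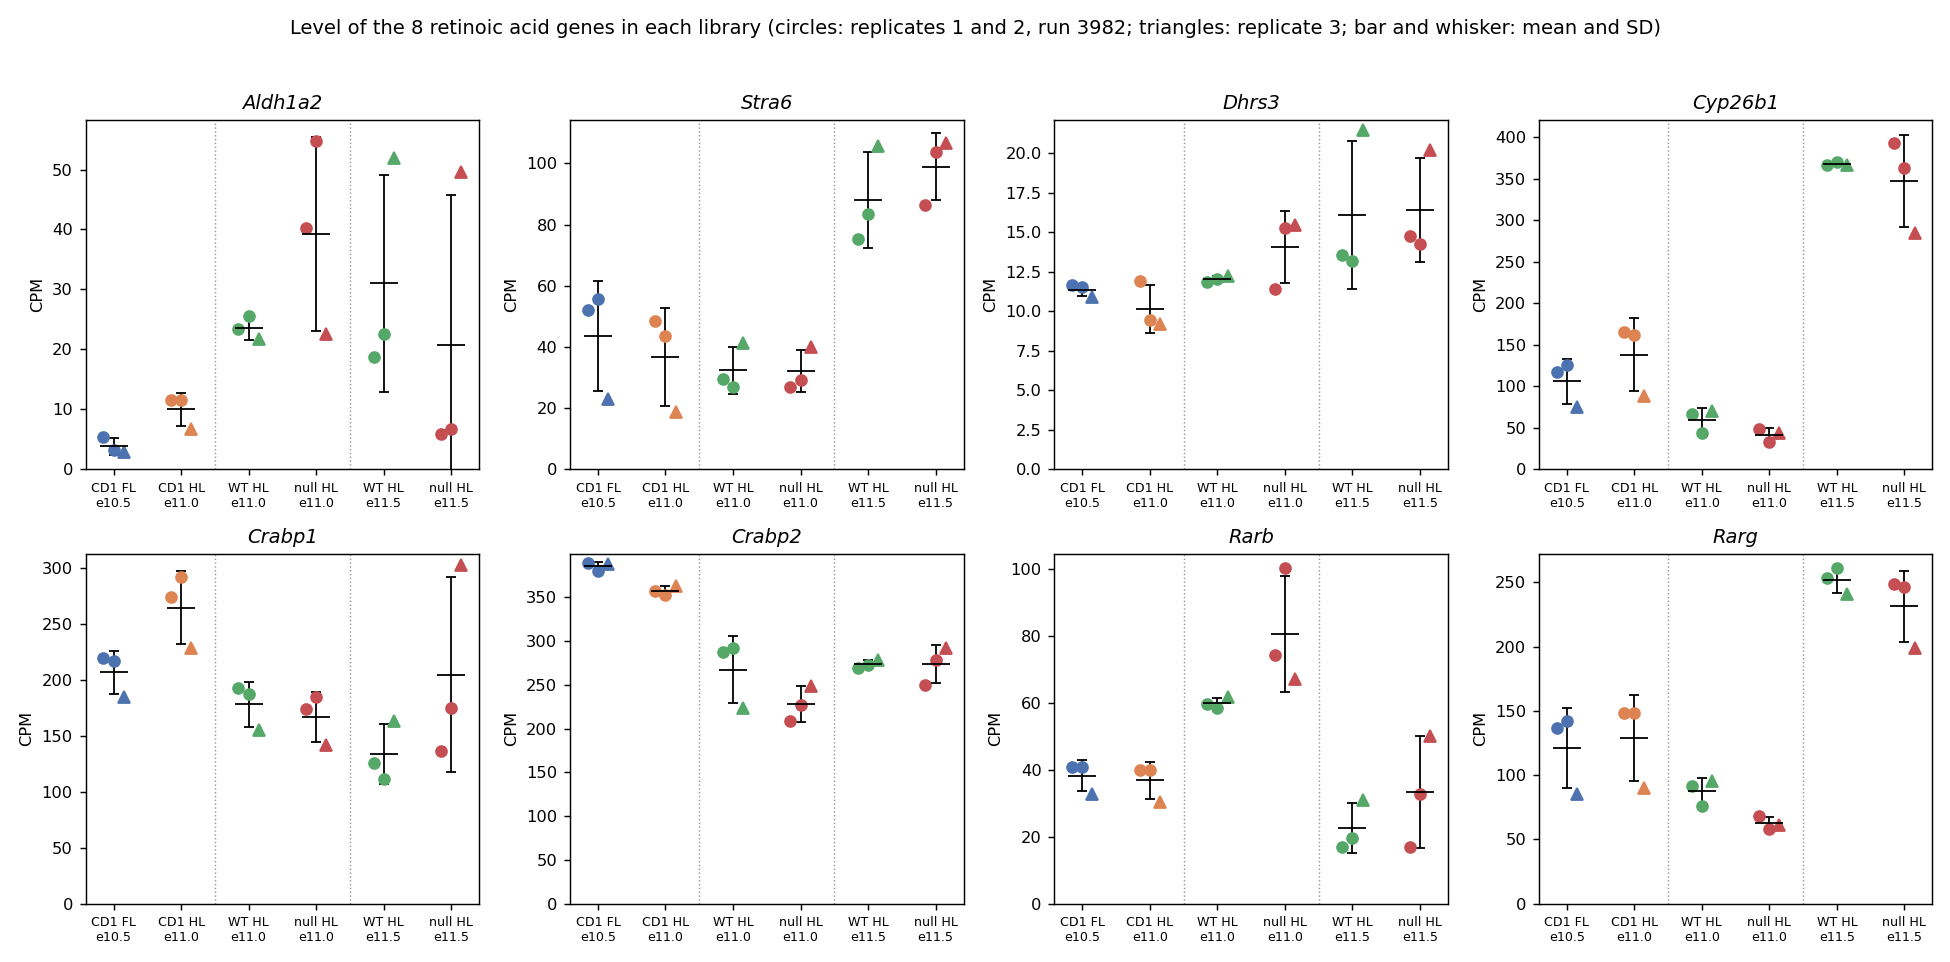
Level in CPM of each of the 8 genes in all 18 libraries, with circles for replicates 1 and 2 (the shared run), triangles for replicate 3, and bars and whiskers for mean and SD (n = 3); FL is forelimb, HL hindlimb and WT wild type. The third replicates of Aldh1a2 at e11.5, at 51.8 and 49.6 CPM, lie above the other libraries of their groups, and those of Stra6 in CD1, at 23.0 and 18.6 CPM, lie below.

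At e11.0, hindlimbs without Pitx1 had more Aldh1a2 and Rarb RNA and less Rarg RNA than wild type. These 3 of 8 genes passed (limma adjusted p under 0.05), 2 higher and 1 lower, beside 13.1% of all listed genes, of which 4.73% were higher and 8.41% lower. That balance rested on scaling: of all genes 664 were higher and 1179 lower with CPM as deposited, 1067 and 520 with trimmed-mean factors, and 1326 and 403 with median-ratio factors. The fitted changes were between 0.40 and 0.63 in size on the log2 scale. Cyp26b1 was lower in each null library than in the wild type library of the same number, but did not pass. The groups did not overlap in 2 of the 8 genes, Rarb and Rarg, against 18.5% of all genes.

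Aldh1a2 was at 23.3, 25.6 and 21.7 CPM in wild type and at 40.3, 54.8 and 22.6 CPM in null hindlimb. Null replicates 1 and 2 were above all wild type libraries, and null replicate 3 lay among them. The log2 fold change was 0.63 ± 0.16 (adjusted p = 0.0356), made of 0.92 within the shared run and 0.06 in the second run. The call was lost without wild type replicate 1 (0.51, adjusted p = 0.192) and without null replicate 2 (0.42, adjusted p = 0.128). Stra6 was at 26.8 to 41.2 CPM in wild type and 27.0 to 39.8 CPM in null hindlimb (-0.01 ± 0.08, adjusted p = 0.921), a sign that turned under rescaling (0.05 with trimmed-mean and 0.08 with median-ratio factors). Dhrs3 was at 11.9 to 12.2 CPM in wild type and 11.4 to 15.5 CPM in null hindlimb (0.20 ± 0.11, adjusted p = 0.239).

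Cyp26b1 was at 66.2, 43.4 and 70.1 CPM in wild type and at 48.7, 32.4 and 43.3 CPM in null hindlimb. Replicate 2 was the lowest library of both groups, which overlapped, and the difference was -0.51 ± 0.16 (adjusted p = 0.0618). With the replicate number as a block it passed (adjusted p = 0.00212), as it did in the authors' deposited table (-0.54, adjusted p = 0.00588), which called 20.6% of all genes, without wild type replicate 2 (-0.71, adjusted p = 0.00165) and without null replicate 1 (-0.70, adjusted p = 0.0094). Crabp1 was at 155 to 193 CPM in wild type and 142 to 185 CPM in null hindlimb (-0.10 ± 0.06, adjusted p = 0.297). Crabp2 was at 287, 292 and 223 CPM in wild type and 209, 227 and 249 CPM in null hindlimb (-0.22 ± 0.10, adjusted p = 0.154). It was lower in both pairs of the shared run and higher in the pair of the second run, and it passed with replicates 1 and 2 alone (-0.41, adjusted p = 0.0448), without wild type replicate 3 (adjusted p = 0.0468) and without null replicate 3 (adjusted p = 0.0481). These fits all rest in effect on replicates 1 and 2 and are not separate tests.

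The receptors moved in opposite directions. Rarb was at 59.7, 58.6 and 61.7 CPM in wild type and at 74.3, 100 and 67.1 CPM in null hindlimb, every null library being above every wild type one (0.40 ± 0.12, adjusted p = 0.0475). Rarg was at 91.7, 75.8 and 95.4 CPM in wild type and at 68.0, 58.0 and 61.3 CPM in null hindlimb, again without overlap (-0.48 ± 0.10, adjusted p = 0.0161). Both calls were lost without wild type replicate 1 (adjusted p = 0.206 for Rarb and 0.115 for Rarg) or replicate 3 (0.0776 and 0.118), and without null replicate 2 (0.194 and 0.0825) or 3 (0.0783 and 0.118). The calls of Aldh1a2, Rarb and Rarg held under both rescalings and under the replicate block. Exons of Rarb overlap those of Top2b on the opposite strand, a topoisomerase gene at 655 to 895 CPM in these libraries, and of the unlisted antisense gene Gm48162. The sources used here do not state that counting kept strand, so reads of Rarb and Top2b may be mixed; Top2b itself did not pass (-0.08 ± 0.07, adjusted p = 0.475).

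Markers of other cells moved with genotype at e11.0. Of 7 endothelial markers 5 were lower in null hindlimb, with a summed level of 161 to 232 CPM in wild type and 91.8 to 180 CPM in null. Of 7 surface ectoderm markers 4 were higher, at 245 to 605 CPM in wild type and 324 to 720 CPM in null, and the highest library of each group was the one of the second run. All 3 listed muscle precursor markers were lower, at 20.7 to 27.0 CPM against 5.69 to 13.1 CPM. Of the 8 somite and body wall markers 4 were listed, Uncx, Nkx3-2, Foxf1 and Gata4 being unlisted, and their sum was 68.2 to 90.1 CPM in wild type and 59.0 to 67.9 CPM in null. Meox1 of that list was higher (0.58 ± 0.10) and Tbx18 was lower (-1.04 ± 0.08). Of 6 limb mesenchyme markers 3 were lower, of 6 distal limb markers 2 and of 4 proximal ones 1. None of the 6 erythroid or 3 listed neural crest, nerve and Schwann markers was called, and the sum of the latter was 27.5 to 61.9 CPM in wild type and 36.8 to 73.6 CPM in null. The part of these cells in the members' changes was not tested.

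**Figure D3:**
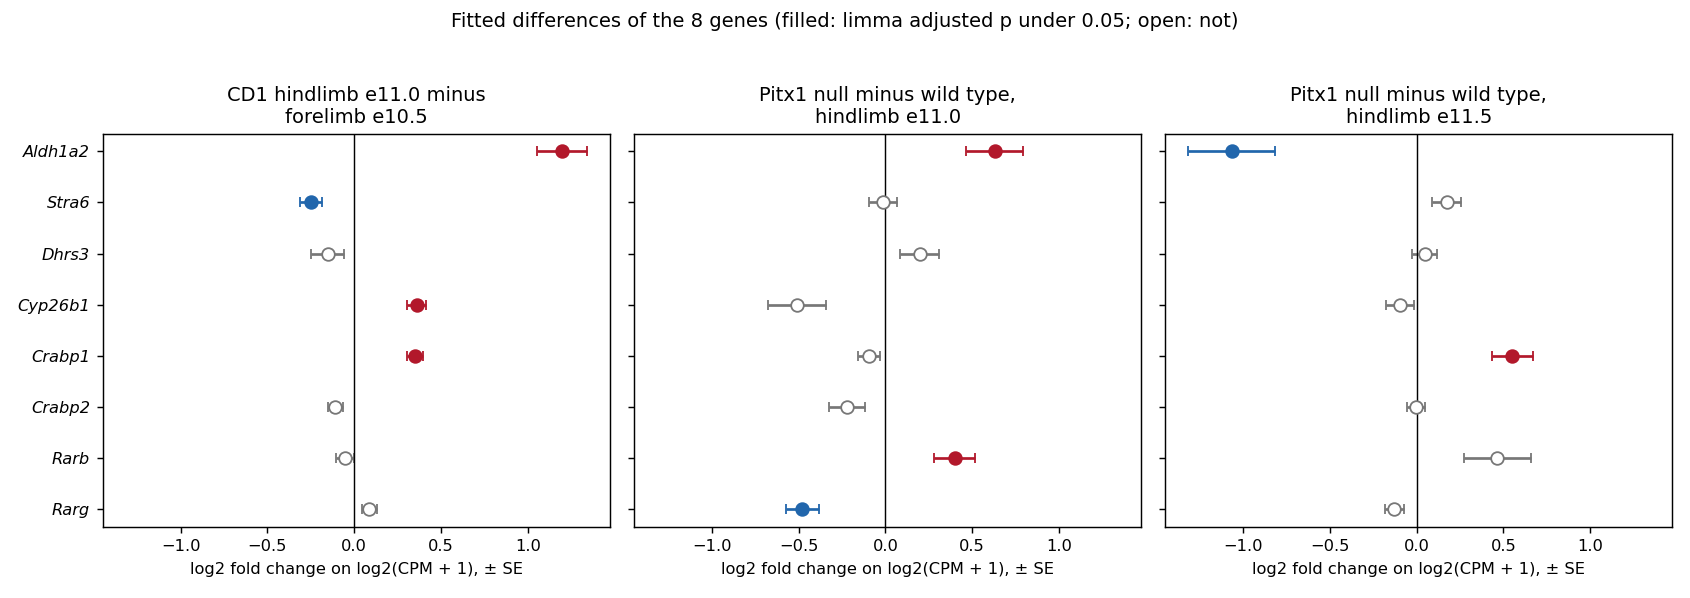
Fitted log2 fold change of the 8 genes on log2(CPM + 1), with SE bars, for CD1 hindlimb at e11.0 minus forelimb at e10.5 and for Pitx1 null minus wild type hindlimb at e11.0 and e11.5; each fit holds 6 libraries, and filled points have a limma adjusted p under 0.05. Aldh1a2 is filled in all 3 panels, at 1.20, 0.63 and -1.06.

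At e11.5, null hindlimbs had less Aldh1a2 and more Crabp1 RNA than wild type. These 2 of 8 genes passed (limma adjusted p under 0.05), 1 in each direction, beside 10.8% of all listed genes, of which 2.83% were higher and 7.96% lower. In counts these were 382 and 1073 genes, or 651 and 927 with trimmed-mean and 743 and 919 with median-ratio factors. No gene of the 8 had groups that did not overlap, against 16.5% of all genes. The pairs of the second e11.5 run and of the shared run gave different sizes for both called genes.

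Aldh1a2 was at 18.7, 22.5 and 51.8 CPM in wild type and at 5.92, 6.67 and 49.6 CPM in null hindlimb. Both libraries of the second run were far above the rest, and within the shared run both null libraries were below both wild type ones. The log2 fold change was -1.06 ± 0.25 (adjusted p = 0.0298), made of -1.57 within the shared run and -0.06 in the second run. With replicates 1 and 2 alone it was called (-1.57, adjusted p = 0.00014). It was also called without wild type or null replicate 3, in effect the same test. The call was lost without wild type replicate 1 (adjusted p = 0.0833) or 2 (0.0604) and without null replicate 1 (0.0552) or 2 (0.136). Stra6 and Dhrs3 did not pass. Stra6 was at 75.2 to 106 CPM in wild type and 86.4 to 107 CPM in null hindlimb (0.17 ± 0.08, adjusted p = 0.192), and Dhrs3 at 13.2 to 21.5 and 14.3 to 20.2 CPM (0.05 ± 0.07, adjusted p = 0.692).

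Crabp1 was at 126.1, 111 and 163 CPM in wild type and at 137, 175 and 303 CPM in null hindlimb. The null library was the higher in each same-numbered pair, and the groups overlapped because null replicate 1 lay below wild type replicate 3. The log2 fold change was 0.55 ± 0.12 (adjusted p = 0.0217), made of 0.38 within the shared run and 0.89 in the second run. The call was lost without wild type replicate 3 (adjusted p = 0.0948), null replicate 2 (0.112) or null replicate 3 (0.0965), and with replicates 1 and 2 alone (0.0915). Crabp2 was at 270 to 279 CPM in wild type and 250 to 292 CPM in null hindlimb (log2 fold change near 0 with an SE of 0.05, adjusted p = 0.971). Cyp26b1 was at 366, 369 and 367 CPM in wild type and at 393, 363 and 285 CPM in null hindlimb (-0.10 ± 0.08, adjusted p = 0.446), where the null library of the second run was the lowest of all 6.

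Rarb was at 17.1, 19.6 and 31.0 CPM in wild type and at 17.1, 32.9 and 50.2 CPM in null hindlimb. Its first pair was level and the other pairs were higher in null, by 0.72 and 0.68, giving 0.47 ± 0.19 (adjusted p = 0.146). The gene passed without null replicate 1 (0.76, adjusted p = 0.00201) and in the authors' deposited table (0.69, adjusted p = 3.58e-05), which called 19.6% of all genes. Top2b, its overlapping neighbour, was at 480 to 688 CPM in wild type and 412 to 682 CPM in null hindlimb (-0.15 ± 0.06, adjusted p = 0.143), and the second run did not keep strand. Rarg was at 241 to 261 CPM in wild type and 199 to 249 CPM in null hindlimb (-0.13 ± 0.05, adjusted p = 0.149).

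Beside these values, all 5 muscle precursor markers were lower in e11.5 null hindlimb, with a sum of 48.6 to 58.0 CPM in wild type and 33.8 to 37.0 CPM in null. Of the listed somite and body wall markers 1 of 4, Tbx18, was lower (-0.99 ± 0.12), and their sum was 159 to 192 CPM against 87.8 to 120 CPM. Of 6 limb mesenchyme markers 3 were higher, and of 6 distal limb markers 2. Of 7 endothelial markers 1 was lower, and of 7 surface ectoderm, 6 erythroid and 4 proximal limb markers none was called. Of the 4 listed neural crest, nerve and Schwann markers Erbb3 was lower (-0.44 ± 0.08, adjusted p = 0.0131), and their sum was 41.3 to 48.3 CPM in wild type and 32.2 to 38.4 CPM in null. The part of these cells in the changes of Aldh1a2 and Crabp1 was not tested.

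**Figure D4:**
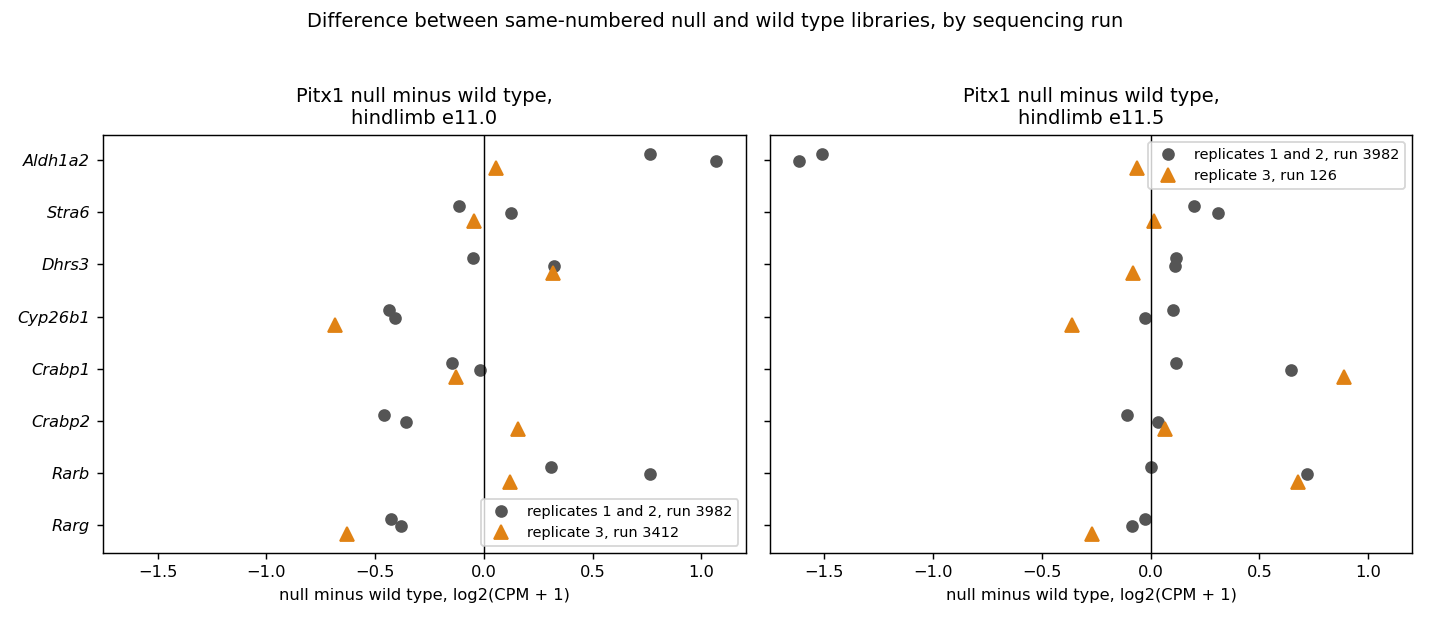
Null minus wild type difference in log2(CPM + 1) for each same-numbered pair of libraries at e11.0 and e11.5, with circles for the 2 pairs of the shared run and triangles for the pair of the other run. For Aldh1a2 the circles average 0.92 at e11.0 and -1.57 at e11.5, while the triangles lie at 0.06 and -0.06.

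The effect of Pitx1 loss at e11.5 was then set against that at e11.0 in 1 fit over both Pitx1 tables (12 libraries, 12935 genes listed in both). No gene of the 8 passed (limma adjusted p under 0.05), where 0.363% of all genes, 47, did. Of the 8, 3 (Aldh1a2, Crabp1 and Rarg) had an unadjusted p under 0.05. The 0.363% is a share at the adjusted threshold, and the share of all genes at the unadjusted one is not given here. Aldh1a2 came nearest, with a difference of -1.69 ± 0.35 (adjusted p = 0.0527). Null was higher in every pair at e11.0 and lower in every pair at e11.5, but the third pairs were near 0 (0.06 and -0.06). The difference passed with the replicate number as a block (adjusted p = 0.0431), with trimmed-mean (0.0426) and median-ratio factors (0.0427), and with replicates 1 and 2 alone (-2.48, adjusted p = 0.000293). With 1 library left out, it was called without either replicate 3 of e11.5 (adjusted p = 0.00498 and 0.00505), without either of e11.0 (0.0475 and 0.0481) and without e11.0 wild type replicate 2 (0.0127).

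Crabp1 differed by 0.65 ± 0.15 (adjusted p = 0.0799), all pairs being lower in null at e11.0 and higher at e11.5. It passed without e11.0 wild type replicate 2 (adjusted p = 0.0138), e11.5 wild type replicate 1 (0.0485) or e11.5 null replicate 1 (0.0127). Rarg differed by 0.35 ± 0.12 (adjusted p = 0.154), Cyp26b1 by 0.41 ± 0.22 (0.285) and Crabp2 by 0.22 ± 0.13 (0.353), and of these Rarg (0.0105) and Cyp26b1 (0.0299) passed without e11.0 wild type replicate 2. Stra6 differed by 0.19 ± 0.12 (adjusted p = 0.361), Dhrs3 by -0.15 ± 0.14 (0.539) and Rarb by 0.07 ± 0.26 (0.898). In the same fit 1 of the 4 listed somite and body wall markers, Meox1, was called lower (-1.05 ± 0.19, adjusted p = 0.0397). It was higher in every null pair at e11.0 and lower in every one at e11.5. The rest of that list was not called, with Tcf15 at 0.10 ± 0.13, Tbx18 at 0.05 ± 0.15 and Wt1 at -0.44 ± 0.36. Erbb3, 1 of 3 listed neural crest, nerve and Schwann markers, was also called lower (-0.73 ± 0.14, adjusted p = 0.0491). Called higher were 3 of 6 limb mesenchyme markers (Prrx2, Msx1 and Lmx1b) and 2 of 6 distal ones. The part of these cells in the members' differences was not tested. Stage goes with library chemistry in this comparison, and they cannot be told apart.

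Across the 18 libraries, after the mean of each table and run was taken off log2(CPM + 1), the 8 genes varied together in few pairs. These correlations are descriptions: the libraries share groups, runs and depth, and each table lost its own means. Cyp26b1 and Rarg were the most alike, with Pearson r = 0.894. Aldh1a2 and Stra6 went opposite ways (r = -0.693), as did Dhrs3 and Cyp26b1 (-0.648), Dhrs3 and Rarg (-0.623) and the receptors Rarb and Rarg (-0.561). Rarb went with Crabp1 (0.528) and Stra6 (0.521), and the carriers Crabp1 and Crabp2 were unrelated (0.0262). Aldh1a2 had an r of 0.00408 with Cyp26b1, the enzyme that undoes its product.

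Among 10165 genes with a mean of at least 5 CPM in every table, the nearest patterns to each gene were ranked by the same measure over 18 libraries. Closest to Aldh1a2 were Etfb (r = 0.835), Crispld2 (0.822) and Svep1 (0.788), the last an extracellular matrix protein. Closest to Stra6 was Meis2 (0.85), a homeodomain factor of the proximal limb, before Gabarapl1 (0.824) and Nfkb1 (0.816). Closest to Rarb were Atp5g1 (0.914), Arl4c (0.879) and Mrfap1 (0.876), and to Rarg Cachd1 (0.978), Dennd5a (0.976) and Fam168b (0.973). Cyp26b1 was nearest to Ripor1 (0.941), Mfn1 (0.939) and Fads1 (0.937), Crabp1 to Naa10 (0.957), Mrpl34 (0.95) and Med8 (0.94), Crabp2 to Yipf2 (0.916), Rp9 (0.885) and Commd9 (0.865), and Dhrs3 to Uxs1 (0.832), Bivm (0.823) and Prelid2 (0.768).

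The rest of the pathway was taken from 4 lists of 48 genes in all, for retinoid supply, breakdown and carriage, receptors and cofactors, and reported retinoic acid response genes. In CD1, 35 of them were listed, and 0 were higher and 9 lower in hindlimb (25.7%, beside 5.87% of all genes), with a median log2 fold change of -0.09 against 0.01 for all genes. Most of these were response genes, 7 of 11 listed. Hoxb4 (-1.56 ± 0.10), Hoxb5 (-1.08 ± 0.15), Hoxa4 (-1.02 ± 0.16) and Hoxd4 (-0.90 ± 0.09), homeobox genes active far forward along the body axis, and Cyp26a1 had the largest differences. Hoxb4 was at 10.47, 10.7 and 7.35 CPM in forelimb and at 2.87, 3.51 and 1.5 CPM in hindlimb. Cyp26a1, a breakdown enzyme, was at 5.97, 3.10 and 3.44 CPM in forelimb and 1.55, 1.26 and 1.43 CPM in hindlimb, without overlap (-1.06 ± 0.18, adjusted p = 0.00735). Rdh10, which oxidises retinol ahead of Aldh1a2, was at 21.9, 21.8 and 22.9 CPM in forelimb and at 16.3, 17.3 and 18.4 CPM in hindlimb (-0.34 ± 0.06, adjusted p = 0.0109), the opposite direction to Aldh1a2. Its call was lost without forelimb replicate 3 (adjusted p = 0.056), hindlimb replicate 1 (0.077) or hindlimb replicate 3 (0.053). None of the 12 listed receptors and cofactors passed limma's test in this comparison (Ncoa1 alone had an unadjusted p under 0.05), with Rara at -0.06 ± 0.05 and Rxra at 0.01 ± 0.06 (adjusted p = 0.536 and 0.935). The count of 9 lower genes was 5 without forelimb replicate 3, hindlimb replicate 1 or hindlimb replicate 3, and 6 without hindlimb replicate 2. Without the run term 0 pathway genes passed limma's test in CD1, at e11.0 or at e11.5, and 8, 2 and 5 had an unadjusted p under 0.05. For these unadjusted counts too, the share of all genes is not given here.

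In null hindlimbs at e11.0, 4 of the 36 listed pathway genes were higher and 1 was lower (13.9%, beside 13.1% of all genes). Rdh10 was at 29.97, 29.9 and 29.9 CPM in wild type and at 42.5, 45.5 and 33.7 CPM in null hindlimb, without overlap (0.42 ± 0.09, adjusted p = 0.0222). Like Aldh1a2 it differed more within the shared run (0.54) than in the second run (0.17), and its call was lost without wild type replicate 1 (adjusted p = 0.13) or null replicate 2 (0.12). The other genes were Hoxb4 (0.41 ± 0.11), Fabp5 (0.33 ± 0.08), a fatty acid binding protein that can also carry retinoic acid, Adh5 (0.26 ± 0.07), an alcohol dehydrogenase, and, lower, Ncor1 (-0.32 ± 0.09), a corepressor. Ncor1 was not called under trimmed-mean (adjusted p = 0.085) or median-ratio factors (0.12). With 1 library left out, Fabp5 and Ncor1 were each called in 2 of 6 fits, and Hoxb4 and Adh5 in 1 of 6. The count of 5 was 12 with the replicate block, and it was 0 without wild type replicate 1 or null replicate 2, 1 without either replicate 3, 7 without null replicate 1 and 15 without wild type replicate 2. Cyp26a1 (0.10 ± 0.13, adjusted p = 0.62), Rara (-0.21 ± 0.12, 0.235) and Rxra (-0.22 ± 0.10, 0.125, and 0.0312 with the block) did not pass.

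At e11.5, 1 of 36 listed pathway genes was higher and 3 were lower in null hindlimb (11.1%, beside 10.8% of all genes). Fabp5 was again higher, at 80.5, 82.7 and 86.9 CPM in wild type and 88.8, 105 and 104 CPM in null hindlimb (0.24 ± 0.06, adjusted p = 0.0425). Ncoa1, a receptor coactivator, was lower, at 26.4, 27.7 and 22.2 CPM in wild type and 18.9, 17.7 and 11.4 CPM in null hindlimb (-0.66 ± 0.09, adjusted p = 0.00264). Rbp4, the retinol-binding protein of blood that Stra6 recognises, was lower (-0.57 ± 0.13, adjusted p = 0.0267), as was Rarres1 (-0.53 ± 0.11, adjusted p = 0.0175), named for its response to retinoic acid. Both were low, Rbp4 at 5.80, 3.77 and 4.35 CPM in wild type and 2.65, 2.83 and 2.78 CPM in null hindlimb. Rarres1, near the listing cutoff, was at 2.42, 2.65 and 1.86 CPM in wild type and 1.79, 1.38 and 0.783 CPM in null. With 1 library left out, Fabp5 was called in 1 of 6 fits, Rbp4 in 2 of 6, Rarres1 in 3 of 6 and Ncoa1 in 6 of 6. The count of 4 was 1 without wild type replicate 3, null replicate 2 or null replicate 3, 2 without wild type replicate 1 and 10 without null replicate 1. Rdh10 (0.13 ± 0.08, adjusted p = 0.274), Cyp26a1 (0.17 ± 0.14, 0.436), Rara (-0.17 ± 0.06, 0.12) and Rxra (-0.11 ± 0.05, 0.195) did not pass.

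**Figure D5:**
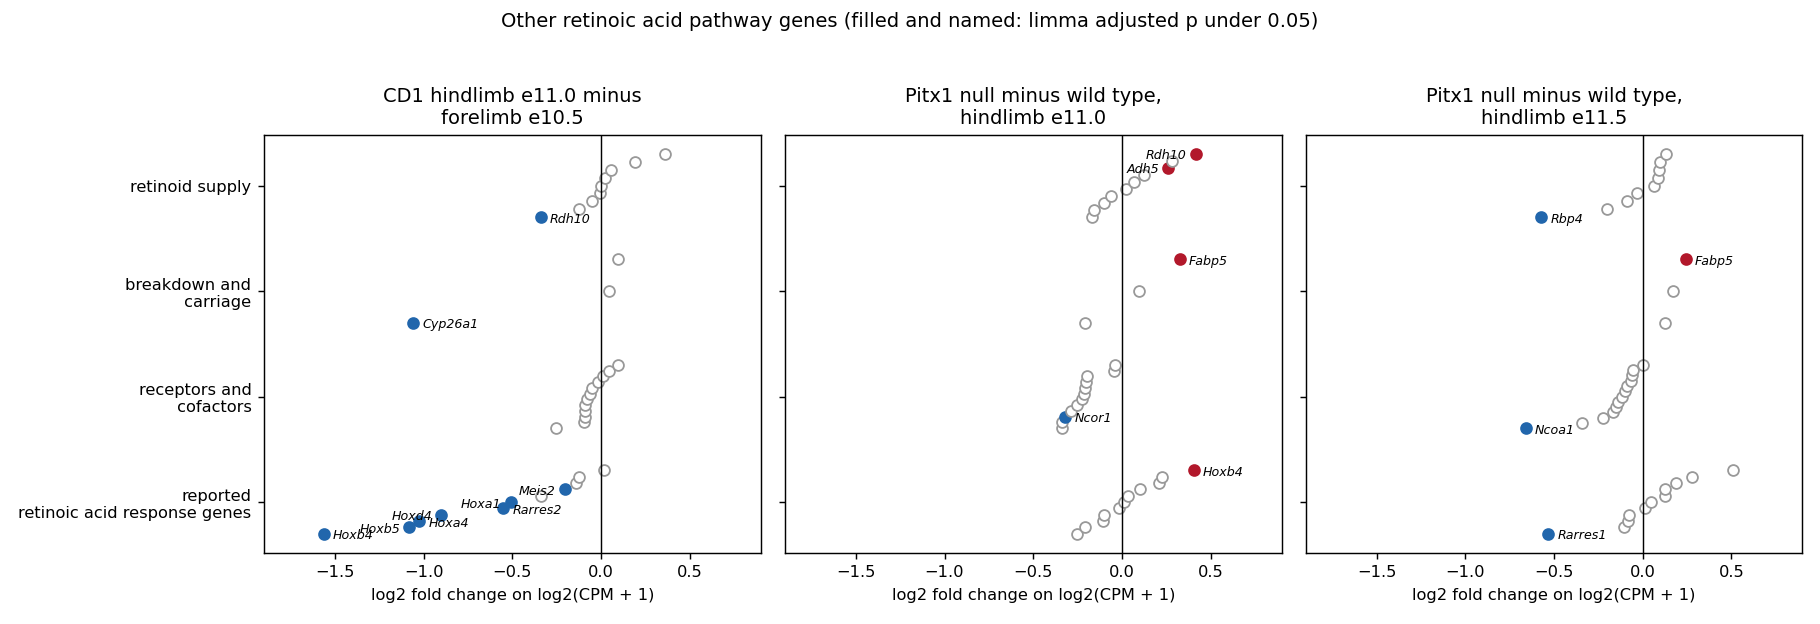
Log2 fold change on log2(CPM + 1) of the other listed pathway genes in 4 lists (rows) for the 3 comparisons; each point is 1 gene, spread vertically by rank, and filled points with names have a limma adjusted p under 0.05. In CD1 the 9 filled points lie to the left, led by Hoxb4 at -1.56, while in the Pitx1 comparisons 5 and 4 points are filled.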

How the data were processed

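RNA-seq was made from 18 libraries of mouse limb buds in 6 groups of 3, grouped by the labels. Reads were aligned with STAR and counted with featureCounts against GRCm38 (mm10), and edgeR is also named, per the submitters' processing notes; versions and the strand setting are not given in the sources used here. The authors deposited CPM for each library in 3 tables, each scaled to its own listed genes, and CPM columns sum to 1000000. The authors' log2 fold changes and log2 average levels, likelihood-ratio score, and unadjusted and adjusted p-value stand beside them, per the file headers. A gene was listed where its third-highest CPM was about 1 or more. Values were whole multiples of 1 read within 0.01 read for 100% of values, which gave the depths; these, and any precision drawn from them, cover counting error only, since PCR copies of 1 molecule cannot be recognised. The count test planned for counts was not used, since the files hold CPM.

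Each table was fitted in R 4.3.3 with limma 3.58.1 (trend) on log2(CPM + 1), with group and run terms and 3 residual degrees of freedom; the difference of Pitx1 effects was fitted over both Pitx1 tables, with 6. Two-sided p-values were adjusted over the whole table by Benjamini-Hochberg, with 0.05 as the threshold. Gene positions are from GENCODE release M 21. On simulated data the fit recovered 89% to 100% of genes changed by 1 on the log2 scale, with 5 to 9 false calls per comparison. The simulated noise was independent between libraries, and only genes above a minimum mean level were changed. Changes smaller than 1, as most called here were, were not simulated. Same-numbered libraries deviated together (r = 0.637 to 0.939 over the 3 tables), as libraries 1 and 2 across groups also did (0.407 to 0.852). In CD1 the crossed pairs of replicates 1 and 2 had r of 0.748 and 0.852, against 0.686 and 0.798 for the same-numbered ones. Because replicate 3 stood apart, replicates 1 and 2 deviate together whatever their numbers, so these r cannot show pairing. That the numbers pair the samples, which also share a run (itself assumed for replicate 3 of CD1), is an assumption. Results of that block are printed where a call changes in a comparison for which the text gives that gene's own test result. Changes of named genes in other comparisons are given only in part. The pairing comes from the replicate numbers in the titles.

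The members and gene lists were chosen with earlier results of these data known. Besides the 8 genes, the text names, for each comparison, up to 5 called pathway genes of largest change, with Rdh10, Cyp26a1, Rara and Rxra whatever their values, and the 3 genes of nearest pattern to each member. Alternatives were other pseudocounts (0.25 and 4), a filter on a mean of 2 CPM, trimmed-mean and median-ratio factors, no run term, a replicate block, replicates 1 and 2 alone, each library left out, the authors' table, and joined exon length.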

Additional observations from a re-analysis of the deposited data

Results flagged for a closer look

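Aldh1a2, the synthesis enzyme, was higher in null hindlimb in every same-numbered pair at e11.0 and lower in every pair at e11.5. The pairs of the shared run averaged 0.92 and -1.57 on the log2 scale, and the third pairs were near 0 (0.06 and -0.06). The difference of the effects was -1.69 (limma adjusted p = 0.0527), which did not pass at 0.05. It passed with trimmed-mean (0.0426) or median-ratio factors (0.0427), with a pseudocount of 4 and with the replicate block (0.0431), and without a run term the adjusted p was 1. Crabp1, a carrier, was lower in null in all 3 pairs at e11.0 and higher in all 3 at e11.5, with a difference of 0.65 (adjusted p = 0.0799, and 0.0526 with the block), which did not pass either.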

How the results depend on the processing

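Most calls on the 8 genes rested on the run term and on which libraries were used. Without the run term 0, 0 and 0 of them passed in CD1, at e11.0 and at e11.5, and 13, 5, 11 and, for the difference of Pitx1 effects, 0 of all genes. With replicates 1 and 2 alone all-gene counts were 471, 199, 483 and 18, and the 8 genes held 3, 2, 1 and 1 calls. The authors' deposited table called 1689, 2895 and 2644 genes. Blocking on the replicate number called 3442 genes at e11.0, and 210 with 1 of the 8 in the difference. It changed the calls of Stra6 in CD1, Cyp26b1 and Rxra at e11.0 and Aldh1a2 in the difference. No call of another member, or of another pathway gene named in its comparison, changed. Of the named markers, Twist1, Lmx1b, Meis2 and Shox2 lost their calls in CD1. Others gained a call with the block: Prrx2 (limma adjusted p = 0.0434) and Erbb3 (0.0372) at e11.0, and Meox1 at e11.5 (0.0428). Ncoa1, a pathway gene named in the other comparisons, gained one at e11.0 (0.045). A pseudocount of 4 gave 87 genes and 1 of the 8 in the difference, and trimmed-mean and median-ratio factors gave 1 of the 8 each.

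Leaving out 1 library gave 394 to 1191 genes in CD1, 116 to 5273 at e11.0 with 0 to 4 of the 8, 433 to 2627 at e11.5 with 0 to 2, and 10 to 2567 in the difference with 0 to 4. The lone library left is then assumed to vary like the rest.

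Signs turned only for changes that were not called. At e11.0 Stra6 was 0.0529 with trimmed-mean and 0.0816 with median-ratio factors, 0.00434 with replicates 1 and 2 and 0.0529 in the authors' deposited table, and -0.0546 to 0.0193 with 1 library left out, and Crabp1 was 0.000108 with median-ratio factors. At e11.5 Crabp2 was 0.0264, 0.0343 and 0.0283 with those factors and in the authors' deposited table, and -0.0391 to 0.0514 with 1 library left out; Cyp26b1 was 0.0383 with replicates 1 and 2 and -0.166 to 0.0383. In CD1 Rxra was -0.00623 in the authors' deposited table and -0.0504 to 0.0589 with 1 library left out. The difference for Rarb was -0.178 with replicates 1 and 2 and -0.161 to 0.357. The causes were not tested. The planned count test on reads recovered from CPM was not run. With 3 libraries a group and 3 residual degrees of freedom, small changes may not have been detectable.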
